A study of Mus musculus with 4 samples.

Results

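The muscle ankyrin repeat genes, the FHL genes and the genes of the complex of ILK, PINCH and parvin were followed in mouse primary myotubes treated with EDA-A2, the ligand of the TNF receptor family member EDA2R. They number 10 of the 53647 genes in the tables: Ankrd1, Ankrd2 and Ankrd23, Fhl1, Fhl2 and Fhl3, and Lims1, Lims2, Ilk and Parvb. The set was named by protein family but selected on values too, since the fold changes of EDA-A2 against control were already known and those of Ankrd2 and Lims2 were among the lowest. The comparison is therefore given for these genes as a description, with standard errors. No p-value is printed for them. Which of them passed the threshold of the fit is stated below, also as a description only. Myoblasts came from limb muscles of WT pups aged 2 to 3 days, were differentiated for 48 h in horse serum medium, and were then left as controls (2 libraries) or given EDA-A2 at 250 ng/ml for 24 h (2 libraries), with harvest at 72 h. What the control wells received in place of EDA-A2 is not given in the labels. Nothing in the labels says that the 2 libraries of a group came from separate cultures or litters, so their spread may be technical.

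The muscle ankyrin repeat proteins bind the elastic I-band region of titin and also enter the nucleus. They are known for rising when muscle is stretched, denervated or injured. FHL proteins are built almost entirely of LIM domains, zinc-binding modules that hold other proteins, and sit at the sarcomere, at adhesions and in the nucleus. ILK is a pseudokinase that binds a PINCH protein (encoded by Lims1 or Lims2) on one side and a parvin on the other, and the complex ties the tails of beta integrins to actin.

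Each library held between 29444155 and 29746863 read pairs counted on genes. A count of 0 allows up to 3 counts, or 0.0993 to 0.104 CPM, which covers counting error only. Myotube markers (10 genes, led by Myh3) summed to 23832 and 22981 CPM in the control libraries and to 17212 and 17320 CPM after EDA-A2, with 5 called lower and 1, Mymx, called higher. Of other cell types, fibroblast markers (8 genes, led by Col3a1) summed to between 1620 and 1774 CPM, with Lum and Thy1 at or under 3 counts in all 4 libraries. Most of the fibroblast sum was Col3a1, with 38820 to 45682 counts, and Col1a1 had 4769 to 9004. Pdgfrb had at most 956 counts in any library, Pdgfra 308, Dcn 138 and Col1a2 21. Smooth muscle and pericyte markers (6 genes) summed to between 533 and 719 CPM, with Kcnj8 at or under 3 counts. That sum was nearly all Acta2, with 15255 to 21639 counts. The other genes of that list had at most 40 counts in any library, and Myh11 had 5 in each. Macrophage, endothelial and Schwann cell markers summed to at most 6.19 CPM in every library, with Adgre1, Ptprc, Emcn and Sox10 at or under 3 counts throughout. Markers of dividing cells (6 genes) summed to between 748 and 888 CPM, of myoblasts (6 genes) to between 623 and 669.7 CPM, and of tenocytes (4 genes) to between 27.7 and 34.8 CPM, with Tnmd at or under 3 counts. Of these, 1 fibroblast marker (Pdgfrb) and 1 tenocyte marker (Scx) were called lower after EDA-A2. Of the myoblast markers, 1 (Cdh15) was called lower and 1 (Vcam1) higher.

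Promoter sequences are shown for 3 of the genes that were lower after EDA-A2, and for Fhl2, whose promoters share a motif with the first listed promoter of Fhl1. They are the 250 bases before the start in RefSeq (GRCm38.p6), 5′ to 3′ on the strand of the gene, with the motifs found in capitals. The window searched, on both strands, ran from 250 bases before to 50 bases after the start. The motifs were the MCAT element CATTCC, which TEAD factors bind, the CArG box of SRF, the MEF2 site, the NFκB site, the E-box CAGCTG of the MyoD kind and the TATA sequence TATAAA. The sequences lie at chr19:36119845-36120094 (- strand) for Ankrd1, chr19:42035777-42036026 (+ strand) for Ankrd2, chrX:56779433-56779682 (+ strand) for the first listed promoter of Fhl1 and chr1:43163962-43164211 (- strand) for the second listed promoter of Fhl2.
Ankrd1: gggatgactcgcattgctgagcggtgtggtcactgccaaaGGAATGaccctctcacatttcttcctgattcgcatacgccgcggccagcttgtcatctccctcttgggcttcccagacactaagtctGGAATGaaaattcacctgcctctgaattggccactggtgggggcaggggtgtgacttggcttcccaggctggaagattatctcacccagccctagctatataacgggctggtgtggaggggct
Ankrd2: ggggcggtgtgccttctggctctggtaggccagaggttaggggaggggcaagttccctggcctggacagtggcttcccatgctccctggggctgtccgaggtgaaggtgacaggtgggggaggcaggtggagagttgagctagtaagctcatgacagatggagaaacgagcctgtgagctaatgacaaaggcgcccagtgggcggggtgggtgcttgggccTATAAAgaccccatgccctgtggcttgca
Fhl1: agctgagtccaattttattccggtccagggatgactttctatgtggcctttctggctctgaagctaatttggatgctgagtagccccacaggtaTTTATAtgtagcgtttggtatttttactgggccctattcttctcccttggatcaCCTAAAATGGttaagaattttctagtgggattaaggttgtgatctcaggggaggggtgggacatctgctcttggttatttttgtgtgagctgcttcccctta
Fhl2: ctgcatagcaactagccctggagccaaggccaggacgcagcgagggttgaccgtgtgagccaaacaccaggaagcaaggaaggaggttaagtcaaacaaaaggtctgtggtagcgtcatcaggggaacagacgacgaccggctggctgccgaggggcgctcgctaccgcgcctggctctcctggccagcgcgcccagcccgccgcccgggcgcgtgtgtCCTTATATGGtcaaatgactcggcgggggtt

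In Ankrd1 the capitals mark 2 MCAT elements, read on the other strand, that begin 210 and 123 bases before the start. MCAT elements are present in 14.7% of the 32851 promoter windows of the table. In Ankrd2 they mark a TATA sequence 29 bases before the start, a motif held by 13.6% of windows. The Fhl1 sequence has a CArG box 102 bases before the start, and that of Fhl2 has a CArG box 31 bases before the start. CArG boxes were rarer, in 1.63% of windows. In Fhl1 a TATA sequence on the other strand is also in capitals, 156 bases before the start. The other listed promoter of Fhl2 also held a CArG box, 96 bases before its start, together with a MEF2 site (3.19% of windows) that overlaps a TATA sequence. In Ankrd23 an MCAT element was found in both listed promoters, in Parvb an E-box (16.3% of windows), in the second listed promoter of Ilk an NFκB site (8.46% of windows), and in Lims1 a MEF2 site in the second and a TATA sequence in the third listed promoter. None of these motifs was found in the promoter of Fhl3, in the second listed promoter of Fhl1 or in the first listed promoters of Lims1 and Ilk. The table gave windows for 9 of the 10 genes, and that of Lims2 was not analysed here. A match describes letters only, and binding was not measured.

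All 10 genes passed the filter on low counts. In the edgeR fit 6 of them passed the threshold of an adjusted p of 0.05, 5 lower (Ankrd1, Ankrd2, Ankrd23, Fhl1 and Lims2) and 1 higher (Lims1). Over all 15173 genes tested, 4.57% passed, 2.13% lower and 2.45% higher. Since the set was chosen with this contrast known, nothing is read from that count. Scaling to total counts instead of TMM turned the split of all calls from 371 higher and 323 lower to 485 higher and 194 lower, with 5 lower and 1 higher among the 10 genes as before. Without the filter on low counts, 2 of the 10 (Ankrd2 and Fhl1) passed. Without control replicate 1 or without control replicate 2, edgeR called 0 genes of any kind at the adjusted threshold, beside 1062 higher and 1117 lower in the first case and 1245 and 1203 in the second at an unadjusted p under 0.05. With either EDA-A2 library left out, Lims1 alone of the 6 was lost. The median log2 fold change of the 10 genes was -0.39, against -0.00208 over all genes tested. As the set was selected partly on these fold changes, nothing is read from that difference either.

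**Figure D1:**
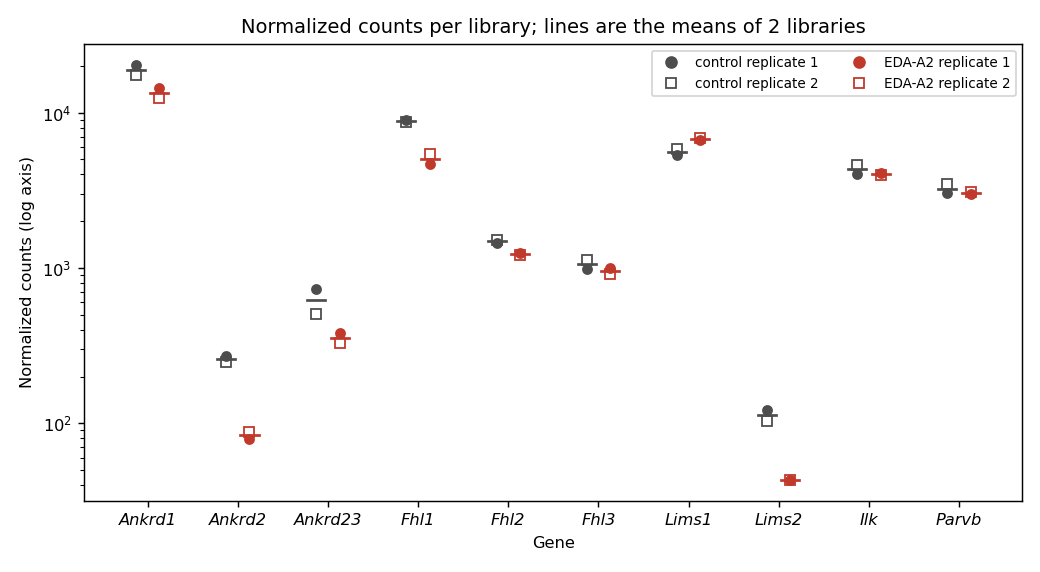
Normalized counts (log axis) of the 10 genes in each of the 4 libraries, with horizontal lines at the mean of the 2 libraries of a group. Control and EDA-A2 libraries do not overlap for Ankrd1, Ankrd2, Ankrd23, Fhl1, Fhl2, Lims1 and Lims2, and they overlap for Fhl3, Ilk and Parvb.

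The ankyrin repeat gene Ankrd2 (ENSMUSG00000025172, chromosome 19 from 42024274 to 42033552, GRCm39) showed the largest change of the 10. It encodes the ankyrin repeat protein known from slow fibres and stretched muscle. Its raw counts were 263 and 247 in the control libraries and 81 and 90 after EDA-A2. On the scale of normalized counts, that is after TMM scaling of all libraries to a common size, these are 271 and 249 against 79.4 and 88.4. Both EDA-A2 libraries lay far below both controls, and the mean fell by 67.7%. The log2 fold change was -1.63 (standard error 0.16), and fits without any 1 library gave values from -1.71 to -1.55. Bulk counts cannot tell apart fewer expressing cells and less transcript per cell, for this gene or the others. They also cannot tell whether myotubes or other cells of the cultures changed.

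Ankrd1 (ENSMUSG00000024803, chromosome 19 from 36089352 to 36097506), the cardiac form of the family and a well known target of YAP, was by far the most abundant of the 10. It had 20357 and 17535 normalized counts in the control libraries and 14316 and 12447 after EDA-A2. Both treated libraries lay below both controls, and libraries of the same group also differed by a log2 ratio of 0.22 in the controls and 0.20 after EDA-A2. Its log2 fold change was -0.50 (standard error 0.09), and the mean fell by 29.4%.

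Ankrd23 (ENSMUSG00000067653, chromosome 1 from 36563865 to 36575964), which encodes the diabetes-related ankyrin repeat protein, had 737 and 502 normalized counts in the controls and 382 and 330.2 after EDA-A2. Control replicate 1 stood well above the other 3 libraries, and the groups still did not overlap. The log2 fold change was -0.80 (standard error 0.15), but it was -0.49 without control replicate 1 and -1.05 without control replicate 2. On the same strand, 45.9% of the exon bases of Ankrd23 are shared with Gm42417, which had 0, 1, 0 and 2 counts. This overlap is that of GENCODE M39. The annotation release and the settings used for counting are not given in the sources used here, so how pairs on the shared bases were counted is not known.

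Of the FHL genes, 1 was called. Fhl1 (ENSMUSG00000023092, chromosome X from 55777147 to 55838706) encodes the main FHL protein of skeletal muscle, a gene of inherited myopathies. It had 9029 and 8654 normalized counts in the controls and 4646 and 5444 after EDA-A2. The controls lay close together and both treated libraries were far below them, at a log2 fold change of -0.81 (standard error 0.08). The mean fell by 42.9%, and fits without any 1 library gave -0.93 to -0.70.

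Fhl2 (ENSMUSG00000008136, chromosome 1 from 43162199 to 43236290), the form known from heart and a partner of many transcription factors, had 1458 and 1512 normalized counts in the controls and 1244 and 1207 after EDA-A2. The groups did not overlap, and the gap between them exceeded the gap within either. The log2 fold change of -0.28 (standard error 0.08) did not pass the threshold. For Fhl3 (ENSMUSG00000032643, chromosome 4 from 124594172 to 124602419), a partner of MyoD, the counts were 988 and 1129 in the controls and 993 and 919.9 after EDA-A2. These overlapped, and the log2 fold change was -0.15 (standard error 0.09).

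In the ILK complex the PINCH genes lay on opposite sides of 0. Lims2 (ENSMUSG00000024395, on chromosome 18) had raw counts of 119 and 102 in the controls and 44 and 44 after EDA-A2. As normalized counts these are 123 and 103 against 43.1 and 43.2. The treated libraries were nearly equal and far below the controls, and the mean fell by 61.7%. The log2 fold change was -1.38 (standard error 0.23), and fits without any 1 library gave -1.50 to -1.25.

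Lims1 (ENSMUSG00000019920, chromosome 10 from 58159231 to 58260527), the broadly expressed PINCH gene, had 5335 and 5874 normalized counts in the controls and 6638 and 6845 after EDA-A2. Both treated libraries were above both controls, by a log2 fold change of 0.27 (standard error 0.07) that was the only positive value of the 10. Without control replicate 1 it was 0.20, and without control replicate 2 it was 0.34.

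Ilk (ENSMUSG00000030890, chromosome 7 from 105385782 to 105392182), the centre of the complex, had 4007 and 4629.5 normalized counts in the controls and 4097 and 3979 after EDA-A2. Parvb (ENSMUSG00000022438, chromosome 15 from 84116232 to 84199889), which links the complex to actin, had 3026 and 3452 in the controls and 2975 and 3080.0 after EDA-A2. Both overlapped between groups. Their log2 fold changes were -0.10 (standard error 0.08) for Ilk and -0.10 (standard error 0.08) for Parvb, and they became 0.01 and 0.00 without control replicate 2. Of the exon bases of Ilk, 77.4% lie opposite exons of Taf10 on the other strand, and Taf10 had between 1123 and 1287 counts. The library kit marks strand, but the setting used for counting is not given in the sources used here.

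**Figure D2:**
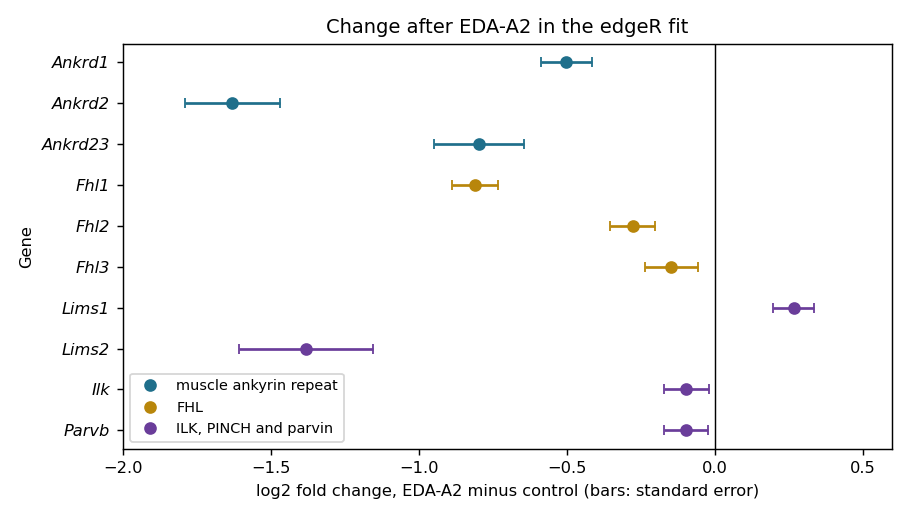
The log2 fold change of each gene (EDA-A2 minus control, edgeR fit) with its standard error as a horizontal bar, coloured by family. Ankrd2 (-1.63) and Lims2 (-1.38) lie farthest below 0, and Lims1 (0.27) is the only gene above 0.

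Groups did not overlap for 7 of the 10 genes, 6 lower and 1 higher. Of all genes tested, 45.0% had groups that did not overlap, 22.2% lower and 22.8% higher. The sum of the myotube markers given above fell in both treated libraries, as did the lower members. Of the 10 markers, 5 were called lower and Mymx was called higher. Lims1 was higher in both treated libraries, and Ilk and Parvb overlapped between groups. The part of the marker decline in the values of these genes was not tested.

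Levels of different genes were compared per length, as RPKM over the merged exons. In the controls Ankrd1 was first with 214.5 ± 22.6 RPKM (SD, n = 2), followed by Fhl1 with 72.7 ± 2.18, Ilk with 49.7 ± 5.07 and Parvb with 24.3 ± 2.26. Lims1 had 21.1 ± 1.44 RPKM, Fhl3 14.96 ± 1.41, Ankrd2 6.60 ± 0.39, Ankrd23 4.55 ± 1.22 and Fhl2 3.06 ± 0.08. Lims2 was last with 1.15 ± 0.14 RPKM. In this order no neighbours overlapped in the controls. After EDA-A2 Ilk lay above Fhl1 and Lims1 above Parvb, with no overlap of their libraries, and of the neighbours in that order those of Ankrd23 and Fhl2 overlapped. Ankrd2 stood at position 7 of 10 in the controls and at 9 after EDA-A2, with 2.13 ± 0.16 RPKM. Counted over its 2488 exon bases that Gm42417 does not share, Ankrd23 had 8.41 ± 2.25 RPKM in the controls, a higher mean than that of Ankrd2, but the control libraries of these genes then overlapped. With the longest transcript as length, Fhl2 had 8.25 ± 0.21 RPKM in the controls, above both Ankrd2 and Ankrd23.

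Within families, the shares of the paralogues shifted between groups. Lims2 supplied 5.87% and 4.54% of the PINCH RPKM in the controls and 1.73% and 1.69% after EDA-A2, so that Lims1 made up 98.3% of it in both treated libraries. The sum of both genes was 22.3 ± 1.29 RPKM in the controls and 25.9 ± 0.55 after EDA-A2. Fhl1 supplied 81.4% and 78.9% of the FHL RPKM in the controls and 69.7% and 74.3% after EDA-A2. As the share of Fhl1 was lower, that of Fhl3 was higher, from 15.3% and 17.7% to 25.6% and 21.6%. The FHL sum itself was lower, 90.7 ± 0.69 RPKM against 57.5 ± 3.85. Ankrd1 held between 94.9% and 97.1% of the ankyrin repeat RPKM in every library, and Ankrd2 went from 2.83% and 3.03% to 1.21% and 1.54%. Among the parvins, Parvb held between 80.3% and 82.6%, with Parva supplying most of the rest. These shares are of the same contrast as the fold changes and carry no test.

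**Figure D3:**
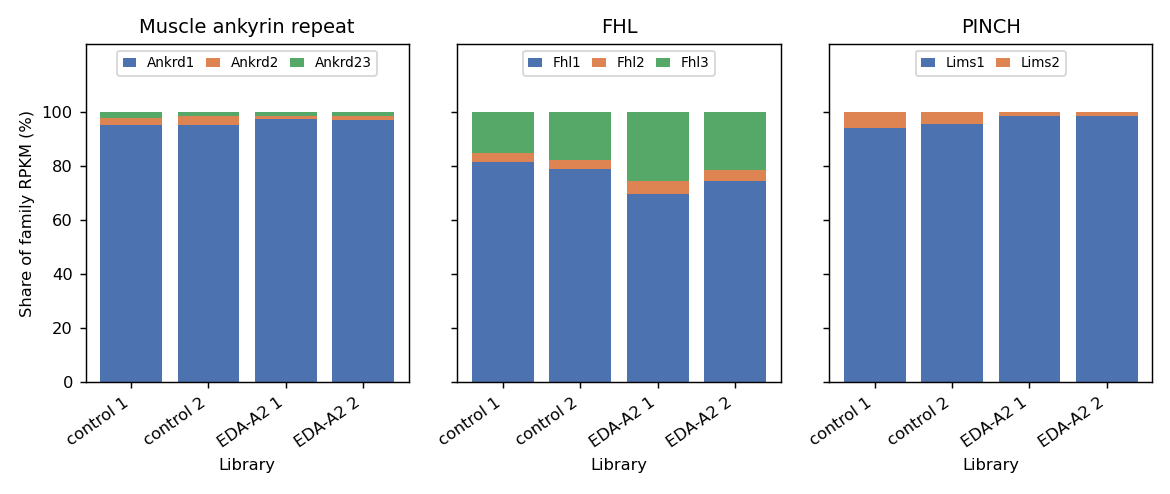
Share of each paralogue in the summed RPKM of its family (percent) in each of the 4 libraries, for the muscle ankyrin repeat, FHL and PINCH genes. Ankrd1, Fhl1 and Lims1 are the largest share in every library, and the Lims2 share is 5.87% and 4.54% in the controls and 1.73% and 1.69% after EDA-A2.

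No stretch of 100 bases, the length of a read, was shared between the transcripts of any 2 of the 10 genes, so reads of this length can tell the paralogues apart. Ankrd2, Fhl1 and Fhl3 shared no such stretch with any other annotated gene. Shares of 100-base stretches held in common with another gene were highest for Ilk (40.1%, mostly with Taf10) and Ankrd23 (34.6%, mostly with Gm42417), and reached 7.73% for Ankrd1, 3.43% for Fhl2 and 1.37% for Lims2.

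Genes whose profile over the 4 libraries was most like that of Ankrd2 and Lims2 were sought among 11340 genes, by the distance between centred log2 CPM values. With only 4 libraries in 2 groups such a likeness mostly reflects the size of the group difference, and it is given as a description. Nearest to Ankrd2 were Gpr20 (distance 0.20), Vgll2 (0.43) and Cilp2 (0.51). Nearest to Lims2 were Vgll2 (0.25), Car3 (0.30) and Gpr20 (0.32). Vgll2, a cofactor of TEAD factors in muscle, had 275 and 285 normalized counts in the controls and 119.6 and 117 after EDA-A2. Car3, the carbonic anhydrase of slow muscle, had 750.1 and 565 against 287 and 317.

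Partners of the ILK complex outside the 10 genes are the other parvins, kindlins, talins, integrins and their adaptors. Of 24 integrin adaptor genes tested of 25 listed, 1 fell and none rose past the threshold, with 23 not called and a median log2 fold change of -0.06, beside 4.57% called over all genes tested. By edgeR's quasi-likelihood test on all genes with Benjamini-Hochberg adjustment, used for all adjusted p-values here, the talin gene Tln2 fell from 6448 ± 419 to 5292 ± 183 normalized counts, or -0.28 on the log2 scale (adjusted p = 0.0307). This call was lost under scaling to total counts (adjusted p = 0.0743). Parva, the other main parvin gene, had a log2 fold change of 0.02 (adjusted p = 0.93 in edgeR), and Rsu1, which binds PINCH, one of 0.07 (adjusted p = 0.778 in edgeR). The integrin genes Itgb1 and Itga7 and the vinculin gene Vcl, the most abundant of the list, had -0.09, 0.22 and -0.13, none past the threshold in edgeR. Itga7 passed it in the DESeq2 Wald test (adjusted p = 0.0297) and under total counts (adjusted p = 0.0203 in edgeR). Beside the 0 genes called higher by edgeR, 4 of the list were higher at an unadjusted p under 0.05 and Itga7 was the 1 called higher by the DESeq2 Wald test.

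Genes of titin's surroundings and of the stretch-sensing Z-disc were listed next. All 23 were tested, of which 7 fell and 1 rose past the threshold, with a median of -0.23. Over all genes tested, 2.13% were called lower and 2.45% higher. This list, like the others, was chosen with earlier results of these data known. Csrp3, the muscle LIM protein of the Z-disc, fell from 8387 ± 1231 to 4343 ± 531 normalized counts, or -0.95 on the log2 scale (adjusted p = 3.76e-05 in edgeR). Xirp1, a protein of myotendinous junctions and intercalated discs, fell by 0.74 on the log2 scale (adjusted p = 0.000334 in edgeR), Nrap, an anchoring protein of nascent myofibrils, by 0.51 (0.000623) and Capn3, the protease bound to titin, by 0.55 (0.0016). The gene that rose was Trim63, the ubiquitin ligase MuRF1, from 2042 ± 39.6 to 3622 ± 244 normalized counts, or 0.83 on the log2 scale (adjusted p = 7.62e-06 in edgeR). Mypn, which encodes a Z-disc partner of the ankyrin repeat proteins, had a log2 fold change of 0.05 (adjusted p = 0.844 in edgeR), and titin itself (Ttn) had -0.25 (adjusted p = 0.0867 in edgeR, 0.0350 in the DESeq2 Wald test). The value for Ttn was -0.15 without control replicate 1 and -0.34 without control replicate 2. Ankrd39, also of this list, had -0.43 (adjusted p = 0.0816 in edgeR).

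Known targets of YAP and TEAD, Ankrd1 left out, were tested as 21 genes. Past the threshold 2 fell and 1 rose, beside 2.13% lower and 2.45% higher over all genes tested, and the median was 0.00. Amotl2 fell from 6816 ± 259 to 5337 ± 339 normalized counts, or -0.35 on the log2 scale (adjusted p = 0.00837 in edgeR) and Crim1 fell by 0.45 on the log2 scale (adjusted p = 0.0256 in edgeR). The call of Crim1 was lost under total counts (adjusted p = 0.0572) and in the DESeq2 Wald test (adjusted p = 0.0811). Ptpn14 rose by 0.30 (adjusted p = 0.0241 in edgeR). Ccn1 and Ccn2, the best known of these targets, had -0.02 and -0.17 and did not pass the threshold, nor did the abundant Gadd45a, Axl and Myof.

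Targets of SRF and its cofactors, tested as 19 of 20 genes, held 5 that fell and 3 that rose past the threshold, with a median of -0.01. The shares over all genes tested were 2.13% lower and 2.45% higher. The actin genes Acta1 and Actc1 fell by 0.52 and 0.47 on the log2 scale (adjusted p = 0.00104 and 0.00129 in edgeR). Acta1 is also in the myotube list. Myl9 fell by 0.50 (adjusted p = 0.0105). Among immediate early genes, Fos fell from 399 ± 34.9 to 231 ± 37.7 normalized counts (adjusted p = 0.00299 in edgeR). Junb rose from 2448 ± 320 to 4122 ± 256 (adjusted p = 9.24e-05 in edgeR). Egr2 and Egr1 rose by 0.54 and 0.32 on the log2 scale (adjusted p = 0.0174 and 0.0441 in edgeR). Neither Egr2 nor Egr1 passed in the DESeq2 Wald test (adjusted p = 0.0505 and 0.135). Ier2 (0.24) and Egr3 (-0.002) did not pass in edgeR. Srf itself had -0.15 (adjusted p = 0.502).

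Other LIM domain genes numbered 36 tested of 41 listed, with 6 that fell and 2 that rose past the threshold and a median of -0.05. Here too the shares over all genes tested were 2.13% lower and 2.45% higher. Mical2, an enzyme that oxidises actin, fell from 6772 ± 142 to 4936 ± 150 normalized counts, or -0.46 on the log2 scale (adjusted p = 0.000751 in edgeR). Limch1, Crip2 and Pdlim3 fell by 0.41, 0.32 and 0.31 (adjusted p = 0.00352, 0.0103 and 0.0126 in edgeR), Pdlim3 being a Z-disc protein that binds alpha-actinin. Ablim1, an actin-binding LIM protein, rose by 0.36 (adjusted p = 0.00753 in edgeR). In these lists the decline of the myotube markers also moved with the genes that fell, and its part was not tested.

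**Figure D4:**
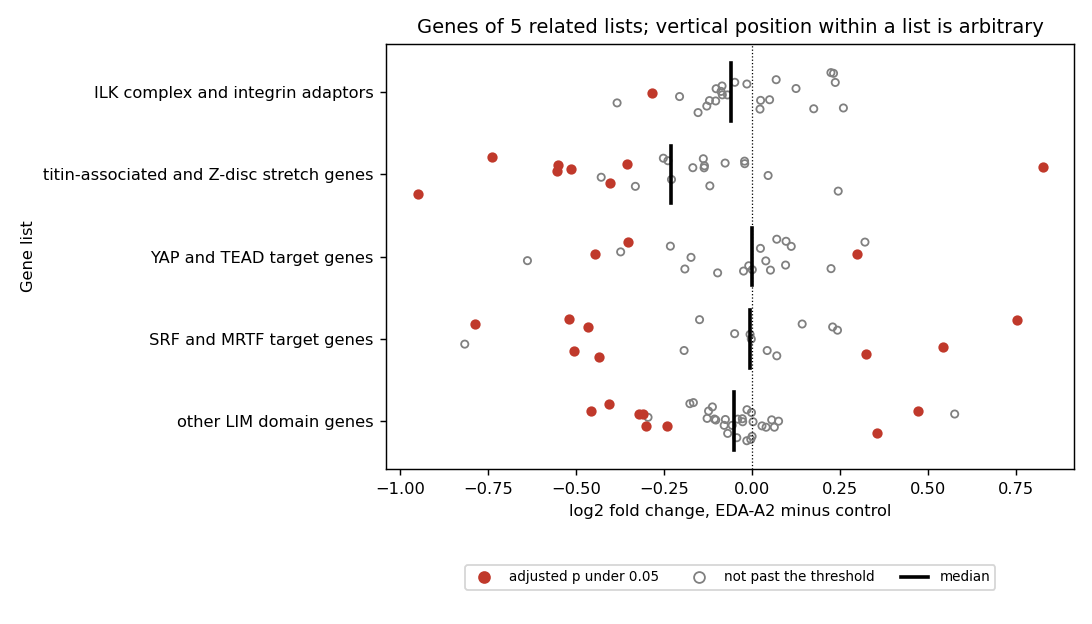
The log2 fold change (EDA-A2 minus control) of every tested gene of 5 related lists, the 10 genes left out, with filled points past an adjusted p of 0.05 and a bar at each median. The titin-associated list has the lowest median (-0.23), and the YAP and TEAD list the median nearest 0.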

How the data were processed

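Polyadenylated RNA of 4 libraries of mouse primary myotubes was sequenced by the authors from a stranded kit as read pairs. Per the submitters' processing notes and the paper's methods, reads were checked with FastQC 0.11.9 and MultiQC 1.12, trimmed with Trim Galore 0.6.5, mapped to GRCm39 with STAR 2.7.3a and counted per gene with HTSeq 0.11.1. The deposited values are raw counts of read pairs per Ensembl gene, 1 table per library. The annotation release and strand setting are not given in the sources used here. HTSeq's summary lines (12.2% to 13.0% of pairs) were left out. GENCODE M39 paired 52610 of 53647 genes with symbols.

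Counts were fitted in edgeR 4.0.16 (R 4.3.3, TMM scaling, filterByExpr, glmQLFit, glmQLFTest) with treatment as the only term. The filter asked for 15 counts in total and for a CPM equal to about 10 counts in at least 2 libraries. Benjamini-Hochberg adjustment ran over all genes tested, at a threshold of 0.05. A standard error is the absolute log2 fold change over the root of F. RPKM used TMM-adjusted library sizes and merged exon lengths. The fit was tested on simulated data. The 10 genes and the gene lists were chosen with earlier results of these data known. Named were all 10 genes, up to 5 called genes per list by p-value, up to 3 more by level where few were called, and the 3 nearest profiles of Ankrd2 and Lims2 among genes with a mean of at least 100 counts. Mypn, Ttn, Ankrd39, Parva, Rsu1, Ccn1, Ccn2, Srf, Egr1, Egr2, Egr3, Ier2 and the single marker genes were added after their values were seen. They were chosen for their role or count. Alternatives were DESeq2 1.42.0 (size factors and Wald test), total counts, other filters, a block for the replicate number, leaving out each library, and other gene lengths.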

Additional observations from a re-analysis of the deposited data

How the results depend on the processing

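Among the 10 genes, log2 fold changes kept their sign under every scaling, filter, test and block tried, and moved by less than the spread between replicates except for Fhl2 under total counts (-0.22). Without filter, 64 genes were called higher and 22 lower in all, 0 and 2 of the 10 genes, and 0 of the other lists in either direction except 1 titin-associated gene higher. Under total counts 194 genes were called lower in all, the adaptor list had 2 higher and 0 lower, and the YAP list 2 higher and 1 lower. With the DESeq2 Wald test 1 adaptor gene, 1 SRF target and 1 other LIM gene were called higher and 1 YAP target lower. Replicate numbers were not stated to mark a shared culture, and the replicate differences of the groups correlated at 0.129 over 11357 genes. With the replicate number as a block 529 genes were called lower in all, and 2 adaptor genes and 2 YAP targets higher, while Fhl2 joined the called genes. Fits without 1 library assume that the remaining library of its group varies like the other group. Without either control library edgeR called 0 genes (1062 higher and 1117 lower at an unadjusted p under 0.05 without control replicate 1, 1245 and 1203 without control replicate 2). Over the 4 libraries left out, calls ranged from 0 to 238 higher and 0 to 170 lower in all. For the 10 genes they ranged from 0 to 0 higher and from 0 to 5 lower, Lims1 being lost each time. For the lists they were 0 to 0 lower for adaptors, 0 to 1 higher and 0 to 7 lower for titin-associated genes, 0 to 0 higher and 0 to 1 lower for YAP targets, 0 to 2 higher and 0 to 4 lower for SRF targets, and 0 to 1 higher and 0 to 3 lower for other LIM genes. With the longest transcript as length, positions by level in the controls were 4 for Lims1, 5 for Parvb, 7 for Fhl2, 8 for Ankrd2 and 9 for Ankrd23. Control shares were then 95.9% for Ankrd1, 2.11% for Ankrd2, 6.16% for Fhl2, 34.1% for Parva and 65.5% for Parvb. On exon bases not shared on the same strand, a choice made after seeing the overlaps, Ankrd23 was at position 7 and Ankrd2 at 8. The alternative alignment of proteins was not run, as no protein sequences were used here. The causes of these shifts were not tested.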
